A study of Mus musculus with 7 samples.

Results

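Intron retention events made up 16478 of the 126309 distinct transcript-structure events listed across 7 mouse neural libraries. They were chosen by event type: every distinct pair of event identifier and type whose type contained IR, in its form with the intron kept (ON) or spliced out (OFF). Each library listed between 11602 and 11890 of them. The single-intron type (IR) had 3403 retained and 5527 spliced events, and the same type with inexact exon ends (XIR) had 1733 and 3297. Events over several introns (MIR) numbered 550 and 1207, and those with inexact ends (XMIR) 238 and 523.

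Each of the 7 libraries came from 1 culture of neural cells made from the wild-type mouse embryonic stem cell line B6G-2; 1 was the control, and the others were exposed to the organophosphate chlorpyrifos, the organochlorine DDT, the respiratory chain inhibitor rotenone, the carbamate carbaryl, the pyrethroid deltamethrin or the neonicotinoid imidacloprid. Stem cells spent 6 days as embryoid bodies, progenitors were grown in RHB-A medium with bFGF and EGF, and cells of day 14 were moved to BrainPhys medium with B27 and exposed for 1 day, per the labels' protocols. The aim stated with the series was to learn how insecticides harm the developing nervous system. The labels used here give neither dose nor vehicle, they call the tissue brain, and no group has a replicate, so nothing below is a test and p-values are not given. With 1 library per group, an insecticide's effect and the variation between cultures cannot be told apart, and in bulk RNA neither can fewer cells of a type and less RNA per cell.

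The libraries carried neural markers. All 6 neural progenitor markers examined and 7 of 9 neuronal ones reached 1 FPKM in every library, where FPKM is fragment count scaled to transcript length and library size. No event was listed for the neuronal genes Tubb3 and Elavl3. Of 6 astrocyte markers, Slc1a3, Slc1a2 and Aldh1l1 were listed in all 7 libraries, while Gfap, Aqp4 and S100b stayed under 1 FPKM wherever they were listed. Of the oligodendrocyte lineage markers, Olig2 was listed at 110 FPKM with DDT and 155 to 169 FPKM in the other libraries, Sox10, Cspg4 and Mbp at no more than 2.11 FPKM, and no event was listed for Olig1 and Pdgfra. With each marker taken at its highest event, the summed level of the pluripotency markers was at most 0.637 FPKM, with no event listed for Zfp42. That of the microglial markers was at most 0.781 FPKM and came from P2ry12 alone, as Aif1, Cx3cr1 and Csf1r had no event listed. The 4 fibroblast markers summed to 17.5 to 26.8 FPKM. The endothelial ones summed to at most 1.60 FPKM, from Kdr alone, as Pecam1 and Cdh5 had no event listed. A gene with no event listed was not measured here, so these sums do not show that a cell type was absent. The depth of each library is unknown because no read counts were used.

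A retained intron is one that the spliceosome has left in an otherwise spliced RNA. Such transcripts are often held in the nucleus, or meet a stop codon inside the intron and are degraded by nonsense-mediated decay, and some are spliced later to give a delayed supply of messenger RNA. Genes for splicing factors and their kinases are known for keeping particular introns as a form of feedback, and neural differentiation is known to change retention of many introns as Ptbp1, a repressor of neuronal splicing, is withdrawn.

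The values used here were read as belonging to whole transcripts, though how an event's FPKM was made was not given. An ON value is the FPKM listed for the IR events whose exon covers the intron, summed over exon patterns. An OFF value is that of the IR events that join its ends. Of the IR pairs, 99.8% had equal outer exon ends, and transcripts listed only under other event types do not enter the IR shares. The retained share of an intron is ON as a percent of ON plus OFF. A share therefore carries any uncertainty in how reads were divided among overlapping transcripts, and it concerns 1 pair of splice ends, not the whole gene. Positions are on GRCm38, with the intron running from its first to its last base.

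The introns printed next show what the retained sequence looks like at the extremes of the data. The first set holds introns retained almost completely that lie in coding sequence of another transcript: Ftl1 (chr7:45459123-45459191, minus strand), Ptprs (chr17:56428967-56429098, minus) and Zswim8 (chr14:20714569-20714670, plus). Capitals mark the first 2 and last 2 bases, which are the splice site letters, and the first stop codon in the frame of the upstream coding exon; no such stop was found in these introns.
Ftl1: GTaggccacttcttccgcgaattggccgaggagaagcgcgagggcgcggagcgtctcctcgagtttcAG
Ptprs: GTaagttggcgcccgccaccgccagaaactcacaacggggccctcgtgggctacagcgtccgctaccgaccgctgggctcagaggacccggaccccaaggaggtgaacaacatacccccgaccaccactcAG
Zswim8: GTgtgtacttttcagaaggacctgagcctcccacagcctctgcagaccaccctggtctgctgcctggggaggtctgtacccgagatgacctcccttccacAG
The second set has the introns with the steadiest and the most variable shares among those retained at 20% to 80% on average, in the same notation. Steady were Scrib (chr15:76048858-76048933, minus), Rpl27a (chr7:109519649-109519917, plus) and Spag7 (chr11:70664477-70664577, minus). Variable were Rrp9 (chr9:106483037-106483118, plus), Gpc2 (chr5:138276076-138276207, minus), Scrn2 (chr11:97032971-97033063, plus) and Dmap1 (chr4:117676136-117676349, minus).
Scrib: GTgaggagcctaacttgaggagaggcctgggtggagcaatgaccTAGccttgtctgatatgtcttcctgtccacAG
Rpl27a: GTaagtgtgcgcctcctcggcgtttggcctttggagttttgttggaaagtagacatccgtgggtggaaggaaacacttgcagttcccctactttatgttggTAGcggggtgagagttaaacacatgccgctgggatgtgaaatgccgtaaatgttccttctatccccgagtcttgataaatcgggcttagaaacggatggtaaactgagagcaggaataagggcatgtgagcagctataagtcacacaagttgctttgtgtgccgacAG
Spag7: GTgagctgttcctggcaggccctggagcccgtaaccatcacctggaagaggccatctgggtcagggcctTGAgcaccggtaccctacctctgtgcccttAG
Rrp9: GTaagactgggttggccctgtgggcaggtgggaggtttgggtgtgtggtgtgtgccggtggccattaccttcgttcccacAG
Gpc2: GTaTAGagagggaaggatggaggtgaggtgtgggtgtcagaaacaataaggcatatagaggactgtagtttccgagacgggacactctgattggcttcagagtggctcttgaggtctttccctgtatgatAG
Scrn2: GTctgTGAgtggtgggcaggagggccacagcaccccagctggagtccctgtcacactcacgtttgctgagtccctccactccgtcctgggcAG
Dmap1: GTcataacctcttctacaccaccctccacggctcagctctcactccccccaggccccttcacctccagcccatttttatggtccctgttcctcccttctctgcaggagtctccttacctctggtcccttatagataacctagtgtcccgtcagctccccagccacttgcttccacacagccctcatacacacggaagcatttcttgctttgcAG
Both sets begin with GT and end with AG, so their outermost letters do not separate steady from variable introns. A stop codon in frame was found in all 3 steady introns printed and in Gpc2 and Scrn2, but not in Rrp9 or Dmap1. The variable intron of Rmc1, not printed, had one at base 120. As the printed introns are only a part of each group, no difference in stop codons is read from them.

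Most introns with an IR event were seen in only some libraries or in a single form only. There were 5769 such introns, of which 3769 had both forms listed in at least 1 library, 1600 only the spliced form and 400 only the retained form. Both forms were listed in all 7 libraries for 933. Retained events were listed less steadily than spliced ones: 33.1% of the IR retained events and 71.0% of the IR spliced events were listed in all 7. Shares were compared for the 768 introns, in 611 genes, whose 2 forms together averaged at least 5 FPKM. The 3 just inside that level were in Recql5, Rmc1 and Thoc1, at 5.03 to 5.06 FPKM, and the highest just outside was in Slc50a1, at 4.98 FPKM.

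Retention was low for most of these introns. The median of the mean share over the 7 libraries was 6.01%. A total of 162 introns had a mean share of up to 1%, 192 between 1% and 5%, 132 between 5% and 10%, 100 between 10% and 20%, 120 between 20% and 50%, 32 between 50% and 80%, and 30 above 80%. The lowest shares were in Rpl13a, a ribosomal protein gene, at 7.31e-05%, in Rack1, a ribosome-bound scaffold, at 0.000157%, in Anapc5, a subunit of the anaphase-promoting complex, at 0.000586%, and in Nop56, a box C/D snoRNP protein, at 0.00118%.

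The 7 libraries had like distributions of shares. The median share was 4.48% in control, 3.73% with chlorpyrifos, 4.23% with DDT, 4.08% with rotenone, 3.93% with carbaryl, 4.20% with deltamethrin and 3.80% with imidacloprid. Control was the highest of the 7 by this measure. Pooling all 768 introns, retained transcripts made up 10.6% of the FPKM in control and between 9.92% (chlorpyrifos) and 10.6% (rotenone) in the exposed libraries, so the order of the libraries differed between the median and the pooled value.

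Intron length had little relation to the retained share. Introns ran from 59 bases (Pacsin2) to 5486 bases (Ptprs). Split into 4 classes of about equal number, the median share was 4.40% for 59 to 95 bases, 5.87% for 96 to 195, 5.48% for 197 to 433 and 7.33% for 435 to 5486. Spearman's rho between length and mean share over the 768 introns was 0.0495, and between GC content and mean share 0.115 over the 743 introns with a sequence. Between the 2 forms' summed level and the share the rho was -0.341, so introns with more transcript tended to have lower shares. That sum is the denominator of the share, and introns were filtered on it, so the 2 values are tied by construction. Introns are not independent points, because genes with several introns share transcripts and all values come from the same libraries. Length and base composition moved together, with a median GC content of 57.9% in the shortest class and 47.1% in the longest.

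Where an intron lay in the protein went with much larger differences in share. For 50 introns the retained segment lies inside annotated coding sequence of another transcript, so that keeping the intron is an alternative coding exon. Their median share was 57.4%, against 5.40% for the other 718. They were short, with a median of 102 bases, and 40 of 50 were a multiple of 3 bases long, which keeps the reading frame, against 209 of 718. Among those whose frame could be read, 1 of 43 had a stop codon in frame, against 576 of 653 of the others. They made up 17 of the 30 introns with a mean share over 80%. The annotation itself defines these introns as coding, so the scarcity of stop codons and the lengths in multiples of 3 follow in part from how they were sorted. The part of this sorting in their higher shares was not tested.

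**Figure D1:**
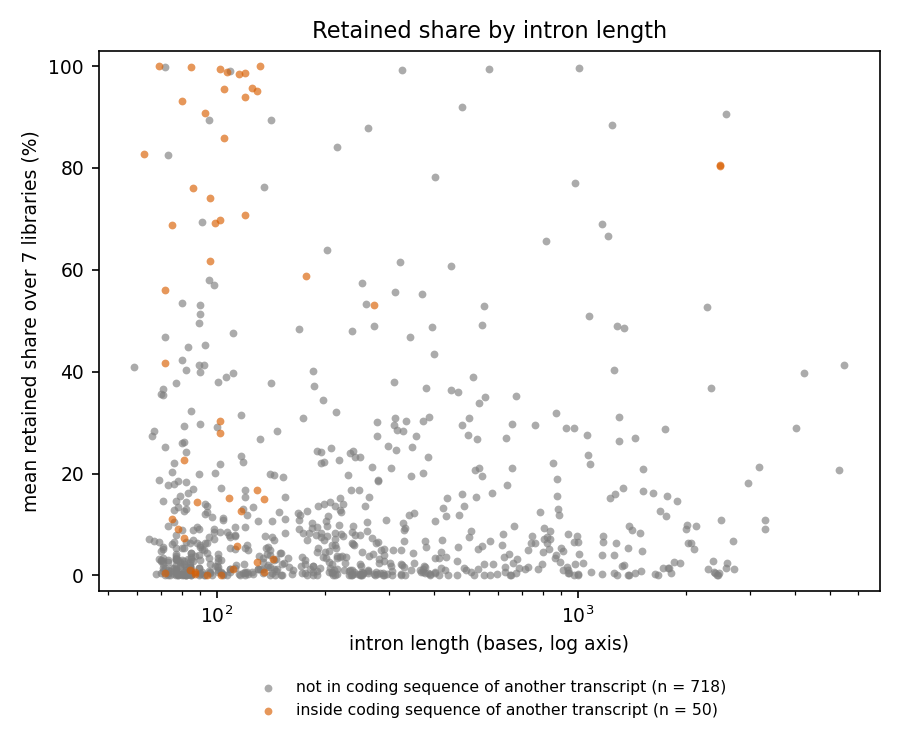
Mean retained share over the 7 libraries (%) against intron length (bases, log axis), 1 point per intron. The 50 introns inside coding sequence of another transcript (orange) are mostly short and spread up to the top of the plot, with a median share of 57.4%, whereas the 718 others (grey) lie mostly near the bottom at all lengths, with a median of 5.40%.

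Among these coding introns, Ftl1, the ferritin light chain that stores iron, had the highest share and the highest level. Its 69-base intron, the first sequence above, was kept at 1174 FPKM in control, 1251 with chlorpyrifos, 1403 with DDT, 1435 with rotenone, 1192 with carbaryl, 543 with deltamethrin and 1279 with imidacloprid. The spliced form was between 0.111 and 0.118 FPKM in all 7 libraries, so the mean share was 99.99%. The deltamethrin library was the low one for the retained form, with a spliced form at the low end of its narrow range. Ptprs, a receptor tyrosine phosphatase of growing axons, kept its 132-base intron at a mean share of 99.9%, with 14.2 to 34.2 FPKM retained and at most 0.0152 FPKM spliced. Zswim8, part of a ubiquitin ligase that clears Argonaute bound to certain targets, kept its 102-base intron at 99.4%, and Srebf2, the regulator of cholesterol synthesis genes, a 120-base intron at 98.7%, between 98.0% and 99.4% over the libraries.

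Other coding introns were kept in part and varied. In Taf15, an RNA-binding protein of the FET family, a 120-base intron had shares of 73.2% in control, 79.0% with chlorpyrifos, 75.2% with DDT, 64.8% with rotenone, 67.1% with carbaryl, 71.2% with deltamethrin and 64.3% with imidacloprid. In Med12, of the mediator kinase module, a 75-base intron ranged from 55.0% in control to 82.2% with rotenone, and control was the lowest library. Both forms were abundant in Taf15 in every library, with at least 8.60 FPKM spliced.

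A pair of introns of Mki67, a proliferation marker, was unlike the rest. Each is 2481 bases long, begins with CT, is no annotated intron, and lies in coding sequence, and they start at 135696848 and 135696877 of chromosome 7. Their mean shares were 80.4% and 80.5%, both from the same retained value of 20.1 to 26.6 FPKM. Whether the spliced forms are real junctions was not tested.

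Over the coding introns and the others together, reading the upstream frame into the intron met a stop codon in 577 of 696 introns (82.9%), including every intron read in the longest class (159 of 159). Of all 768, 745 lay within an exon of some annotated transcript. The 23 that did not were longer, with a median of 876 bases, and had a higher median share, 27.4% against 5.56% for the annotated ones. For 42 introns no annotated protein-coding transcript used the splice. Their median share was 34.4%, and 9 of them had a mean share over 80%. The splice site letters were the usual ones: of 743 introns with a sequence, 98.4% began with GT and 10 with GC, 99.6% ended with AG, and 49.0% began with GTAAG or GTGAG. The letters GTATCCT or ATATCCT, which open introns of the minor spliceosome, began 6 introns, in Cnep1r1, Polr2e, Rfc5, Rmc1, Rpl4 and Tmem258. Of these, 5 had mean shares from 0.394% (Rpl4) to 6.88% (Rfc5). Rmc1 is described below with the widest ranges.

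Shares differed widely between groups of genes. For each of 18 lists chosen by function, the median of the mean shares was set beside the 6.01% of all 768 introns. Introns of splicing regulators had a median of 13.9% (30 introns in 21 genes) and spliceosome components 14.1% (6 in 6). RNA polymerase II and mediator genes had 12.8% (13 in 9). At the other end were cytosolic ribosomal proteins at 1.30% (19 introns in 16 genes) and proteasome subunits at 0.544% (7 in 7). Translation factors had 0.334% (11 introns in only 4 genes) and heat shock chaperones 0.135% (7 in 6). Introns with a mean share of up to 1% had a median level of 37.6 FPKM, against 13.6 FPKM for those at 20% to 80%, and the part of level in the differences between lists was not tested. Chromatin regulators had 2.73% (12 introns in 11 genes), tRNA charging enzymes 4.43% (8 in 5) and cell cycle genes 5.54% (9 in 7). Genes known for a retained intron had 10.3% (12 introns in 8 genes), and 7.07% as a median over genes.

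**Figure D2:**
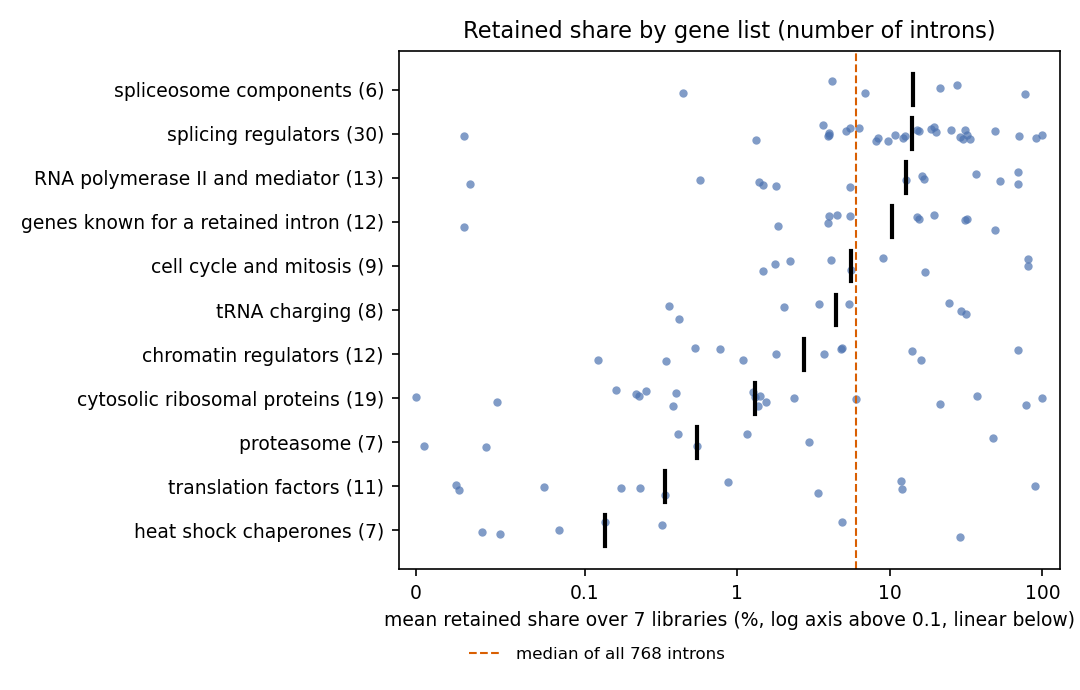
Mean retained share over the 7 libraries (%, log axis above 0.1 and linear below) of each intron, by gene list with at least 5 introns. Black bars are list medians and the dashed line is the median of all 768 introns, 6.01%; splicing regulators and spliceosome components lie to its right and heat shock chaperones, translation factors, proteasome and ribosomal proteins to its left.

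Within the ribosomal list a few introns stood far from the median. Rpl27a kept its 269-base intron at 20.7% in control, 21.8% with chlorpyrifos, 22.6% with DDT, 23.8% with rotenone, 17.6% with carbaryl, 24.03% with deltamethrin and 18.9% with imidacloprid, a narrow band at a high level (243 to 272 FPKM of both forms). Rpl7a kept a 186-base intron at 6.80% with rotenone, 14.9% in control and up to 74.8% with imidacloprid. In Rps18 the retained form was 1.19 to 1.902 FPKM in control, chlorpyrifos, carbaryl and imidacloprid libraries, and 86.3, 77.6 and 146 FPKM with DDT, rotenone and deltamethrin. Its share against the main splice was thus at most 0.202% in the first 4 libraries and 10.5%, 8.93% and 21.8% in the other 3. Against a second, weak splice 19 bases longer, the same retained form had a mean share of 99.04%, which shows how a share depends on the splice it is set against.

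The splicing regulators divide by family. The Clk kinases phosphorylate SR proteins, and their genes are known for introns that are kept in the nucleus. Clk1 had 4 introns compared. The 387-base intron had shares of 30.1% in control, 57.1% with chlorpyrifos, 19.5% with DDT, 24.05% with rotenone, 21.6% with carbaryl, 36.7% with deltamethrin and 28.5% with imidacloprid. The 871-base intron beside it was kept at 19.5% to 46.9%, and the 1349-base intron that spans both, by joining across the exon between them, at 30.2% to 79.3%. An 87-base intron further along was kept at 1.23% to 7.30%. The 387-base and 871-base introns had the same share in 5 libraries, with the same retained and spliced FPKM there, and the short intron had far lower shares in the same libraries.

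Clk2, Clk3 and Clk4 showed other patterns. The 346-base intron of Clk2 was kept at 60.6% with chlorpyrifos, 34.3% with deltamethrin and 30.8% with rotenone, and at 1.68% to 4.58% in control, DDT, carbaryl and imidacloprid libraries. The 2100-base intron of Clk3 was kept at 34.5% with DDT, from 2.26 FPKM retained and 4.29 FPKM spliced, and at 0.150% to 0.484% in the 6 others. The 191-base intron of Clk4 stayed between 0.530% and 8.03%. Below the 5 FPKM level, a further intron each of Clk2 and Clk3 had mean shares of 22.4% and 88.7%. The highest library was chlorpyrifos for Clk2 and the 387-base intron of Clk1, DDT for Clk3 and carbaryl for Clk4.

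Srpk1, another kinase of SR proteins, was the splicing regulator whose control library stood apart. Its 373-base intron was kept at 77.9% in control, 9.50% with chlorpyrifos, 8.33% with DDT, 6.30% with rotenone, 20.4% with carbaryl, 14.0% with deltamethrin and 4.06% with imidacloprid. The difference lay mainly in the spliced form, at 0.970 FPKM in control and 9.41 to 15.1 FPKM elsewhere, while the retained form was 3.43 FPKM in control and 0.398 to 3.65 FPKM elsewhere. Srpk1 was among the 4 introns furthest below control in every exposed library, and all 6 differences rest on the same control value.

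SR proteins and hnRNP proteins, which promote and repress exon use, ranged from steady to variable. Srsf5 kept a 1229-base intron at 21.8% in control, 0.726% with chlorpyrifos, 8.63% with DDT, 19.4% with rotenone, 18.2% with carbaryl, 10.2% with deltamethrin and 27.2% with imidacloprid, so the chlorpyrifos library was the low one. Srsf7 kept an 874-base intron at up to 8.77%, and Srsf6 a 1283-base intron at no more than 0.0385%. Hnrnph1 kept introns of 1494 and 939 bases at 7.03% to 9.56% and 6.50% to 9.30%, with the same retained value behind both. Set against the 2572-base splice that skips the exon between them, that value gave 98.2% to 99.3% in 6 libraries and 41.1% with DDT, where the skipping form was 16.4 FPKM against 0.125 to 0.237 FPKM elsewhere. A 197-base intron of Hnrnph1 was kept at 2.23% to 7.33%. Hnrnpk kept a 207-base intron at 15.9% with chlorpyrifos up to 35.9% with deltamethrin. Its 93-base intron was kept at 5.40% in control, 15.2% with chlorpyrifos, 3.60% with DDT, 4.87% with rotenone, 7.90% with carbaryl, 16.4% with deltamethrin and 31.5% with imidacloprid. Against this splice 3 libraries were higher than the rest. The retained form was 9.16 to 15.6 FPKM, while the spliced form ran from 33.9 to 274 FPKM. Against the splice of an overlapping 78-base intron, the same retained form had shares of 13.7% with chlorpyrifos to 24.4% with deltamethrin. Whether retention or the use of either splice differed was not tested. Hnrnpm kept a 117-base coding intron at 32.8% with DDT and 7.11% to 12.2% elsewhere, and Hnrnpl a 111-base coding intron at up to 2.65%.

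Ptbp1, the repressor of neuronal exons, had 2 introns compared. The 79-base intron was kept at 31.3% in control, 41.8% with chlorpyrifos, 9.92% with rotenone and 25.6% with deltamethrin, and at 0.150%, 0.00530% and 0.0215% with DDT, carbaryl and imidacloprid. The summed level of its 2 forms was 82.8 to 109 FPKM, so the libraries near 0 were not low in transcript. The 107-base intron was kept at 91.8% with DDT and close to 100% in the 6 others. This segment lies in annotated coding sequence, and no annotated protein-coding transcript splices it out. Its spliced form was 8.10 FPKM with DDT and at most 0.00609 FPKM elsewhere.

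RNA-binding proteins completed the list. Ewsr1, of the FET family, kept a 532-base intron at 7.72% in control, 80.3% with chlorpyrifos, 25.7% with DDT, 36.9% with rotenone, 40.3% with carbaryl, 17.9% with deltamethrin and 27.5% with imidacloprid. Control was the lowest, and the high chlorpyrifos share came with a spliced form of 3.15 FPKM against 28.8 to 75.2 FPKM elsewhere. Tial1, a regulator of 5' splice sites, kept a 334-base intron at 18.1% with DDT to 48.7% with deltamethrin. Its relative Tia1 had a share of 44.1% with carbaryl, but there its 2 forms summed to only 0.0141 FPKM, so that share rests on almost no transcript. The RNA helicase Ddx17 kept a 4042-base intron at 20.2% to 39.0%, and Rbm25 a 3300-base intron at 7.04% to 13.4%. A 1265-base intron of the helicase Ddx5 was kept at 1.23% to 5.78%, and a 2065-base intron of Srrm1, a splicing coactivator, at 1.98% to 13.0%.

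**Figure D3:**
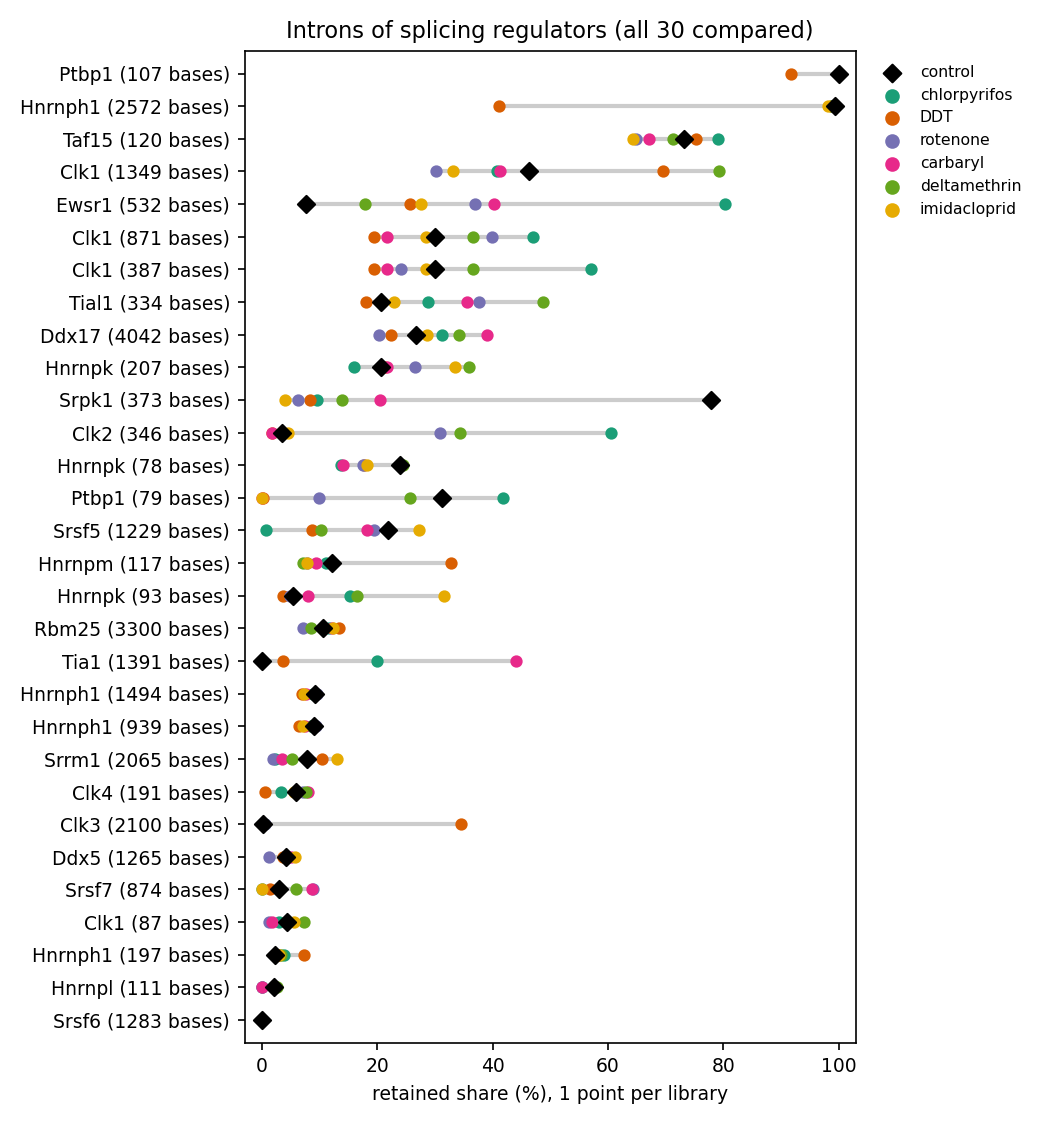
Retained share (%) of the 30 compared introns of splicing regulators, 1 point per library with control as a black diamond, ordered by mean share; grey lines span the 7 libraries. Control is the highest library for 3 introns, Srpk1 among them (77.9%), and the lowest for 2, Ewsr1 among them (7.72%).

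As a list, the 30 splicing regulator introns had a median share of 9.90% in control, 12.7% with chlorpyrifos, 9.52% with DDT, 9.43% with rotenone, 10.8% with carbaryl, 12.1% with deltamethrin and 10.1% with imidacloprid. The median difference from control ran from -1.70 points with DDT to 0.37 points with deltamethrin. Between 11 and 18 of the 30 were above control in each exposed library, and 3 to 6 differed from it by 20 points or more. Of all 768 introns, 353 to 407 were above control and 73 to 85 (9.51% to 11.1%) differed by that much. Among genes known elsewhere for a retained intron, Nxf1, the RNA export receptor that binds its own retained intron, kept a 1765-base intron at 5.29% in control, 11.5% with chlorpyrifos, 21.2% with DDT, 22.7% with rotenone, 15.2% with carbaryl, 7.05% with deltamethrin and 26.0% with imidacloprid. A 79-base intron of Nxf1 was kept at 0.598% to 4.31%. Mat2a, the methionine adenosyltransferase regulated through an intron, kept a different, 253-base intron at 2.12% to 6.35%.

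Neuronal and glial genes were thinly represented, with 4 introns of the neuronal and synaptic list and 1 of the glial and progenitor list compared, of 32 and 11 with both forms listed in some library. Gria2, an AMPA receptor subunit, kept a 4231-base intron at 31.8% in control, 46.2% with chlorpyrifos, 34.7% with DDT, 61.04% with rotenone, 31.8% with carbaryl, 32.5% with deltamethrin and 39.6% with imidacloprid. The rotenone library was the high one, and its retained form was 16.8 FPKM against 6.67 to 10.6 FPKM elsewhere. Agrn, which organises synapses, kept a 412-base intron at 0.00750% in control and up to 14.1% with deltamethrin, and Sez6, a dendrite protein, a 213-base intron at 14.1% in control and 1.24% to 9.43% in the exposed libraries. The endocytic adaptor Ap2a1 stayed under 1.76%. Hes6, a helix-loop-helix factor of neurogenesis, had the sole intron of the glial and progenitor list, kept at 2.002% in control and at most 0.474% elsewhere. Trp53, the p53 tumour suppressor, kept a 731-base intron at 11.4% in control and at no more than 0.135% in any exposed library, with a retained form of 5.04 FPKM in control and at most 0.0222 FPKM elsewhere.

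The range of a share over the 7 libraries was small for many introns and large for others. It was under 5 points for 282 of the 768 introns and under 10 points for 390, while 232 (30.2%) ranged over 20 points or more, 64 over 50 or more and 13 over 80 or more. The steadiest introns at mean shares of 20% to 80% were those of Scrib, Stk25, Rpl27a and Spag7. Scrib, a cell polarity scaffold, kept its 76-base intron at 22.7% in control, 22.2% with chlorpyrifos, 21.6% with DDT, 22.7% with rotenone, 21.9% with carbaryl, 23.3% with deltamethrin and 20.9% with imidacloprid, with both forms together at 23.9 to 27.7 FPKM. Stk25, a Golgi and neuronal polarity kinase, kept an 816-base intron at 63.1% to 67.2%. Spag7 kept its 101-base intron at 34.1% to 42.0%, with 25.1 to 29.7 FPKM retained.

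The widest ranges had the opposite form, in which some libraries had almost only the retained form. Rrp9, a protein of the U3 snoRNP that processes ribosomal RNA, kept its 82-base intron at 26.0% in control, 3.04% with chlorpyrifos, 99.9% with DDT, 2.09% with rotenone, 99.99% with carbaryl, 49.1% with deltamethrin and 2.48% with imidacloprid. Gpc2, a heparan sulfate proteoglycan of the nervous system, kept its 132-base intron at 99.99% with carbaryl and at 0.512% to 30.2% elsewhere. Scrn2 had 98.9% with chlorpyrifos, 99.7% with rotenone and 85.4% with carbaryl, and 3.58% to 18.6% in the others. Dmap1, a subunit of a histone acetyltransferase complex, had 99.01% with carbaryl and 97.8% with imidacloprid, and 3.76% to 6.65% in the others. The zinc finger gene Zfp523 ran from 1.44% with deltamethrin to 97.2% with chlorpyrifos. Rmc1, of the complex that activates Rab7, ran from 2.65% with rotenone to 95.3% in control.

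In Dmap1 and Gpc2 the sum of both forms was lowest in the library with the highest share. Both forms of Dmap1 summed to 0.358 FPKM with carbaryl and up to 16.4 FPKM elsewhere, since the retained form stayed at 0.355 to 0.958 FPKM while the spliced one ran from 0.00353 to 15.4 FPKM. With imidacloprid Dmap1 had 0.912 FPKM retained and 0.0205 FPKM spliced, so both of its high shares rest on little transcript. The sum for Gpc2 was lowest with carbaryl, 1.59 FPKM, against a highest of 24.7 FPKM. Over the 64 introns with a range of at least 50 points, the median coefficient of variation over the libraries was 29.8% for the sum, 64.8% for the retained form and 54.3% for the spliced form. Over all 768 it was 14.6%, 61.6% and 17.2%. The 64 were chosen by their shares, which both forms enter, so nothing is read from these differences. The part of the assignment of reads to transcripts in these values was not tested. In 9 introns the 2 forms together fell under 1 FPKM in some library, and 7 of these ranged over 20 points or more.

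**Figure D4:**
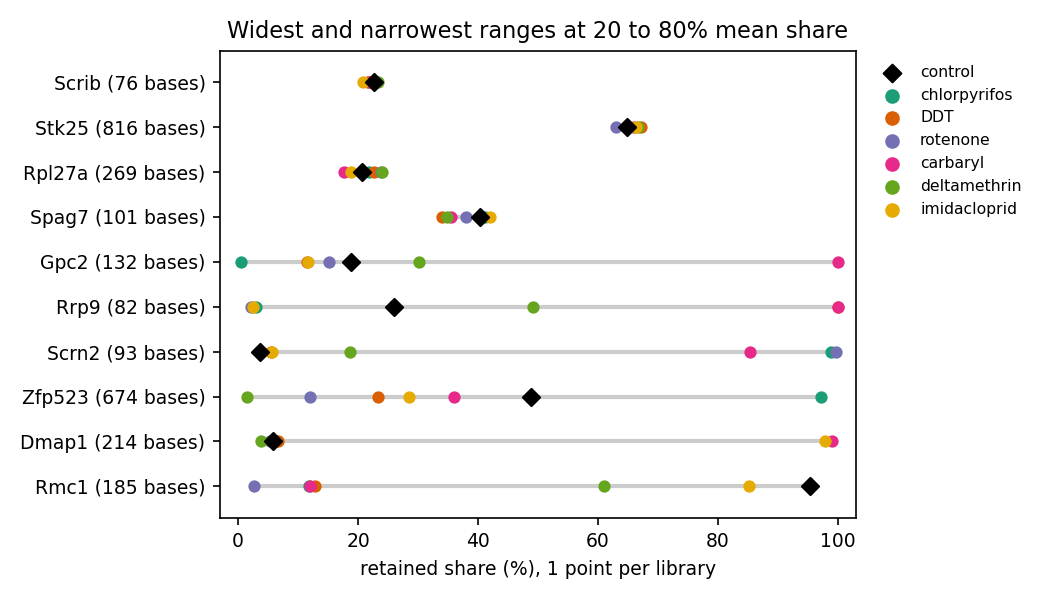
Retained share (%) of the introns with the 4 narrowest and the 6 widest ranges at 20% to 80% mean share, 1 point per library with control as a black diamond; grey lines span the 7 libraries. The narrow introns keep all libraries within a few points, as Scrib at 20.9% to 23.3%, while the wide ones spread from near 0 to near 100%.

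Against control, each exposed library differed by 20 percentage points or more at a like share of the introns, in both directions. The counts were 74 of 768 with chlorpyrifos (9.64%, 38 higher and 36 lower), 78 with DDT (10.2%, 35 and 43), 82 with rotenone (10.7%, 35 and 47), 85 with carbaryl (11.1%, 39 and 46), 73 with deltamethrin (9.51%, 38 and 35) and 80 with imidacloprid (10.4%, 39 and 41). Exposed libraries differed as often from each other: in their 15 pairs the count was 74 to 90 (median 80), and in the 6 pairs that include control its median was 79. The SD of the differences was 13.3 to 15.0 points with control and 13.2 to 15.3 points between exposed libraries. By these counts an exposed library stood no further from control than from another exposed library, and the single introns below are values of these libraries. Nearest the threshold, Dvl1 was 20.2 points above control with deltamethrin and just inside it, and Efs 19.96 points below with imidacloprid and just outside.

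**Figure D5:**
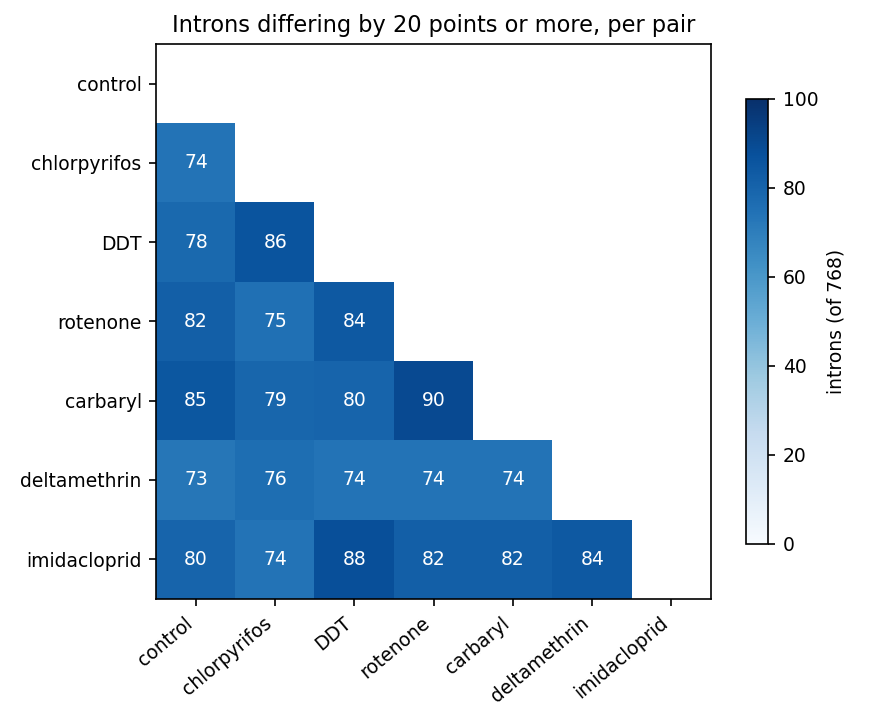
Number of introns, of 768, whose retained share differs by 20 percentage points or more, for each of the 21 pairs of libraries (colour and digits). Pairs with control, in the first column, hold 73 to 85 introns and pairs of exposed libraries 74 to 90.

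Large differences from control were found in each library, beside those of the introns with the widest ranges above. With chlorpyrifos, the 70-base intron of Plekhj1 was kept at 96.0%, against 4.28% in control, and with deltamethrin at 88.3%. With DDT, a 212-base intron of Acads, a mitochondrial short-chain acyl-CoA dehydrogenase, was kept at 55.1%, against 0.0342% in control and at most 1.79% elsewhere. Also with DDT, the 95-base intron of Eif4a1, the helicase of the cap-binding complex, was kept at 26.3%, against at least 99.8% in every other library. Its splice was weak, at 17.8 FPKM with DDT and at most 0.149 FPKM elsewhere. The retained form was 6.34 FPKM with DDT, 17.5 FPKM with imidacloprid and 87.7 to 101 FPKM elsewhere. Set against the splices of the 886-base and 342-base introns of Eif4a1, the same retained form had shares of only 1.09% to 16.8%. With rotenone, a 551-base intron of Ccnl2, a cyclin of splicing kinases, was kept at 98.0%, against 17.5% in control. No annotated protein-coding transcript splices it out, and its spliced form was 0.0699 FPKM with rotenone and 10.7 FPKM in control. With deltamethrin, a 478-base intron of Jmjd6, a hydroxylase of splicing factors, was kept at 92.4%, against 0.0392% in control and at most 10.5% elsewhere, and a 309-base intron of Nars, the asparagine tRNA ligase, at 83.1%, against 12.7% in control. With imidacloprid, a 76-base intron of Cpne1, a calcium-dependent membrane binder, was kept at 65.6%, against 0.195% in control and at most 10.4% elsewhere. With carbaryl the 4 largest rises in named genes were those of Dmap1, Scrn2, Gpc2 and Rrp9 given above, and Rmc1 fell further than 3 of these rose.

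Every library, control included, had introns that were its own. Counting introns at which 1 library lay at least 20 points above or below all 6 others, control had 7, chlorpyrifos 7, DDT 11, rotenone 11, carbaryl 12, deltamethrin 5 and imidacloprid 9. The 7 of control are the introns past the threshold in the same direction in all 6 exposed libraries, and they share 1 control value each. They were named after their values had been seen. Rad9a, a DNA damage checkpoint clamp protein, was kept at 43.9% in control and 80.4% to 99.7% elsewhere, and Rhbdf1, an inactive rhomboid protein, at 2.55% in control and 41.6% to 50.1% elsewhere. Lower outside control were Maged1 (40.1% against 4.25% to 6.55%), Pacsin2 (67.6% against 30.9% to 43.1%), Srpk1, Appl2 (46.5% against 0.374% to 14.5%) and Fuz, a planar polarity gene of cilia (53.1% against 0.00535% to 22.9%). Maged1 rests on the highest level of the 7, with 88.8 FPKM retained in control and 9.71 to 14.7 FPKM elsewhere. In all, 194 introns were past the threshold in at least 1 exposed library, and 13 were higher in some exposed libraries and lower in others.

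The other event types gave fewer introns to compare. Under the same level filter, 114 groups of introns of the MIR type had a median share of 3.36%, and 10 of the XMIR type 2.26%. The 121 XIR introns had a median of 30.3%. In XIR pairs the outer exon ends of the retained and spliced forms were equal in only 7.45% of 1504 pairs, against 99.8% of 3769 IR pairs, so an XIR share also compares transcripts with different starts or ends. Retained values were shared as well: 62 of the 768 IR introns, in 30 genes, had the same retained FPKM in all 7 libraries as another intron of the gene, and 54 introns in 25 genes overlapped another compared intron.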

How the data were processed

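RNA of 7 libraries was analysed, 1 per group as named in the sample titles. The submitters' processing notes name HISAT2 2.0.1, cutadapt 1.9.1, bcl2fastq 2.17.1.14 and the build GRCm38. The authors deposited 1 FPKM value for each transcript-structure event, per the file headers, and no event is listed at 0. Which tool made the events was not given in the sources used. FPKM were used unscaled.

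Repeated lines (1665 to 1802 per library) were dropped. Retained and spliced values of the same intron ends were summed over patterns, and introns were named by GENCODE M21 of the same build, with 91 of 768 lines naming another gene. Intron sequences came from GENCODE M21 transcripts whose exon covers the intron. Introns with both forms in all 7 libraries and a mean sum of at least 5 FPKM were compared, with a threshold of 20 percentage points. Python 3.11.15, pandas 2.3.3, numpy 2.4.6 and matplotlib 3.10.9 were used. The calculation was run on simulated data (chlorpyrifos against control, 767 introns), and 100% of shifts of 30 points passed the threshold. The simulated shares carried no noise, so this outcome was fixed in advance. It checks the calculation and says nothing of sensitivity in the real libraries.

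Named introns were drawn from the 8 highest and 4 lowest mean shares, the 4 largest differences per direction and library, the 6 widest and 4 narrowest ranges at 20% to 80%, all introns of the lists of splicing regulators, known retained introns and neural genes, up to 4 of other lists, and the 3 on each side of a threshold; predicted genes were left out. Other introns of the coding group and markers were named after their values were seen. Members and lists were chosen with earlier results of these data known. Values of a few genes are not reported here.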

Additional observations from a re-analysis of the deposited data

How the results depend on the processing

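With 1 library per group no replicate could be left out. No paired analysis was possible because no group has a second library. The counts past the threshold for chlorpyrifos, DDT, rotenone, carbaryl, deltamethrin and imidacloprid, in that order, were 218, 203, 219, 221, 206 and 216 of 2203 introns when a form not listed was taken as 0. They were 131, 143, 126, 141, 123 and 136 of 933 with no minimum level, and 43, 46, 53, 47, 42 and 43 of 599 at 10 FPKM. At 1 FPKM they were 122, 136, 134, 116 and 123 for all but rotenone, which stayed within 1.5 times. At 10 points they were 173, 178, 164, 160, 181 and 170, and at 30 points 47, 44, 52, 39 and 48 for all but chlorpyrifos, which stayed within 1.5 times. As a 2-fold change of the ratio of the forms they were 187, 209, 191, 198, 193 and 184 with a pseudocount of 1 FPKM, and 309, 328, 316, 294, 314 and 310 with 0.1 FPKM. Against the median of the 6 other libraries the count for deltamethrin was 45, and the Srpk1 share was 11.5 points higher with carbaryl and 5.05 points higher with deltamethrin, the reverse of the difference from control. Under the same setting 6 differences no longer reached 20 points, those of Fuz with rotenone and imidacloprid (-16.2 points in each) and of Srpk1 with chlorpyrifos (-1.65), DDT (-3.40), rotenone (-5.44) and imidacloprid (-7.67). The median share was 2.98% with unlisted forms as 0, 7.48% at 1 FPKM, 4.42% at 10 FPKM, 7.71% with no minimum and 5.45% for introns with 1 pattern per form. The shortest introns had 5.52% at 1 FPKM, 3.26% at 10 FPKM and 5.20% when taken as those under 150 bases, and the longest 9.14% and 6.30% at those levels. Splicing regulators had 15.4% with no minimum. Genes known for a retained intron had 15.2% at 1 FPKM and 15.4% with no minimum, against 10.3% in the main setting. The tRNA charging enzymes had 5.42% at 1 FPKM and with no minimum, and 15.9% as a median over genes. RNA polymerase II and mediator genes had 16.1% over genes, and chromatin regulators 3.67% at 1 FPKM, with no minimum and over genes. The shares of Dnaja1 and of the 78-base Hnrnpk intron were 17.3% and 9.44% with XIR events added. Of the other values, 50 of the main ones and 436 of single introns stayed within the limits set; the cause of each change was not tested, beyond the number of introns each setting admits.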
